A study of Rattus norvegicus with 15 samples.

Results

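Interferon-stimulated genes, the genes that cells switch on when interferon reaches them, were followed here across the striatum of 15 rats. The list held 39 genes named by symbol. A gene was matched to every transcript row of the array whose only symbol was that gene, and where there were several rows, as for Usp18 and Samd9l, the brightest over the 15 arrays was taken. This gave 36 genes of 39, out of 36685 transcript rows in all, of which 18511 carry 1 symbol. Ddx58, Bst2 and Eif2ak2 had no such row and were not analysed here. The rats were adult male Sprague-Dawley animals in 5 groups of 3. Normal rats were sham-operated, and PD rats carried a unilateral lesion of the nigrostriatal pathway made with the toxin 6-OHDA and received no L-DOPA. LID rats had the same lesion and were given L-DOPA each day for 3 weeks, and had been selected for full dyskinesia, the abnormal movements this drug brings on. LID+Vehicle and LID+PD98059 rats were lesioned and L-DOPA-treated as well, were dyskinetic when the infusions began, and carried a cannula in the lateral ventricle. Through it vehicle or PD98059, an inhibitor of the kinase MEK, was infused daily for 12 days from day 10. The paper reports lower dyskinesia scores with PD98059 than with vehicle before the tissue was taken. No cannula is described for the LID rats. Every array holds striatal RNA of the operated hemisphere.

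Interferons are secreted proteins that warn cells of viruses and other danger. Type I interferons bind a receptor found on nearly all cells, whose kinases JAK1 and TYK2 set off a complex that holds STAT2 and IRF9 and binds the interferon-stimulated response element (ISRE) in the promoters of its targets. Interferon gamma, made mainly by T and NK cells, has a receptor of its own and acts through a different element, the gamma-activated site (GAS). In the brain, microglia, astrocytes, endothelium and neurons can all respond.

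The promoters of these genes are shown first, since these elements are what such genes are known to share. Whether the elements have a part in the differences between the arrays was not tested. In the table of RefSeq promoters used here (build GRCr8) 27 of the 36 genes had an entry. Not in that table were Ifit2, Mx2, Oas2, Isg15, Usp18, Dhx58, Rtp4, Zbp1 and Samd9l. The 250 bases before each gene start were searched on both strands for the core of the ISRE, GAAA and GAAA with any 2 bases between them, and the core of the GAS, TTCNNNGAA. The ISRE core was present in 18 of 27 promoters (66.667%), against 3.406% of all 33469 rat promoters of the same length. The GAS core was present in 9 of 27 (33.333%) against 7.667% of all, and either core in 21 (77.778%) against 10.643%. No match of a core overlapped a match of the other. Neither core was found in these windows for Stat2, Mx1, Oasl, Herc6, Dtx3l and Parp9. A match describes the letters only, and a window without one says nothing about the factor.
The whole 250 bases are given for Mx1 and Rsad2, which were among the 3 genes with the largest fitted difference between LID and PD, and for Oas1a, which had the smallest. Isg15, the other of the 3, was not in the table. Capitals mark the matches to either core, each sequence runs 5′ to 3′ along the gene's strand, and coordinates are those of GRCr8.
Mx1 (chr11:50294607-50294856, minus strand): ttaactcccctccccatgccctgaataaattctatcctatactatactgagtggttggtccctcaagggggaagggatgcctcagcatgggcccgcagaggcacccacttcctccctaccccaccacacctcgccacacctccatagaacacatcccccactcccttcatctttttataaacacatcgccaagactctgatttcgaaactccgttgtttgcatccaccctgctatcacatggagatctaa
Rsad2 (chr6:48788121-48788370, minus strand): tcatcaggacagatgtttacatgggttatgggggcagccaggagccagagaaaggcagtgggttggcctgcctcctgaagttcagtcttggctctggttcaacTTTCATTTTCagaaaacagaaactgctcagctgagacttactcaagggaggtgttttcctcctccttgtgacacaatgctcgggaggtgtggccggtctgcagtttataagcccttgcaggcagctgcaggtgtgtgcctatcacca
Oas1a (chr12:41330216-41330465, plus strand): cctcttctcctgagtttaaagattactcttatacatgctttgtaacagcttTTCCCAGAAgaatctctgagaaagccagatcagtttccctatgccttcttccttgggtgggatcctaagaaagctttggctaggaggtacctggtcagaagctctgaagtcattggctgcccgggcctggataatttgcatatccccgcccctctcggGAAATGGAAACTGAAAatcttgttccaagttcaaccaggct
Mx1 held no match, Rsad2 held 1 ISRE core on the opposite strand, and Oas1a held 1 GAS core and 2 overlapping ISRE cores.
In 3 of the 27 promoters a GAS core was followed, after 2 bases, by an ISRE core. The same spacing, with the ISRE core in forward orientation only, was found in 4 of all 33469 promoters (0.012%). These were the promoters of Igtp, Irgm, Irgm2 and Parp14, of which Irgm2 is a relative of Irgm and no member of the list. The spacing was taken from the matches in the listed genes, so its share among all promoters tests nothing. These windows of 60 bases were chosen after the matches and the array values had been seen, and show that arrangement, the overlapping pair of ISRE cores that Oas1b shares with Oas1a, and the lone GAS core of Irf1.
Igtp (chr10:42874917-42874976, plus strand): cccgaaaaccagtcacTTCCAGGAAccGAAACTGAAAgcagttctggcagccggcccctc
Irgm (chr10:33742580-33742639, minus strand): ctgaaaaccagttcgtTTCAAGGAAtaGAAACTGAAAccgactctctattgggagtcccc
Parp14 (chr11:78408031-78408090, plus strand): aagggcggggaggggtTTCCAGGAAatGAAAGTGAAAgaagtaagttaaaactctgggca
Oas1b (chr12:41395868-41395927, minus strand): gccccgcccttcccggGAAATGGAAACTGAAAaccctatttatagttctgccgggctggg
Irf1 (chr10:38417767-38417826, plus strand): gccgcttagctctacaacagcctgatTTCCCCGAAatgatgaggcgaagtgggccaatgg
The letters GAAACTGAAA followed the GAS core in both Igtp and Irgm, which encode related GTPases, while Parp14, which encodes an unrelated enzyme, had GAAAGTGAAA there.

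**Figure D1:**
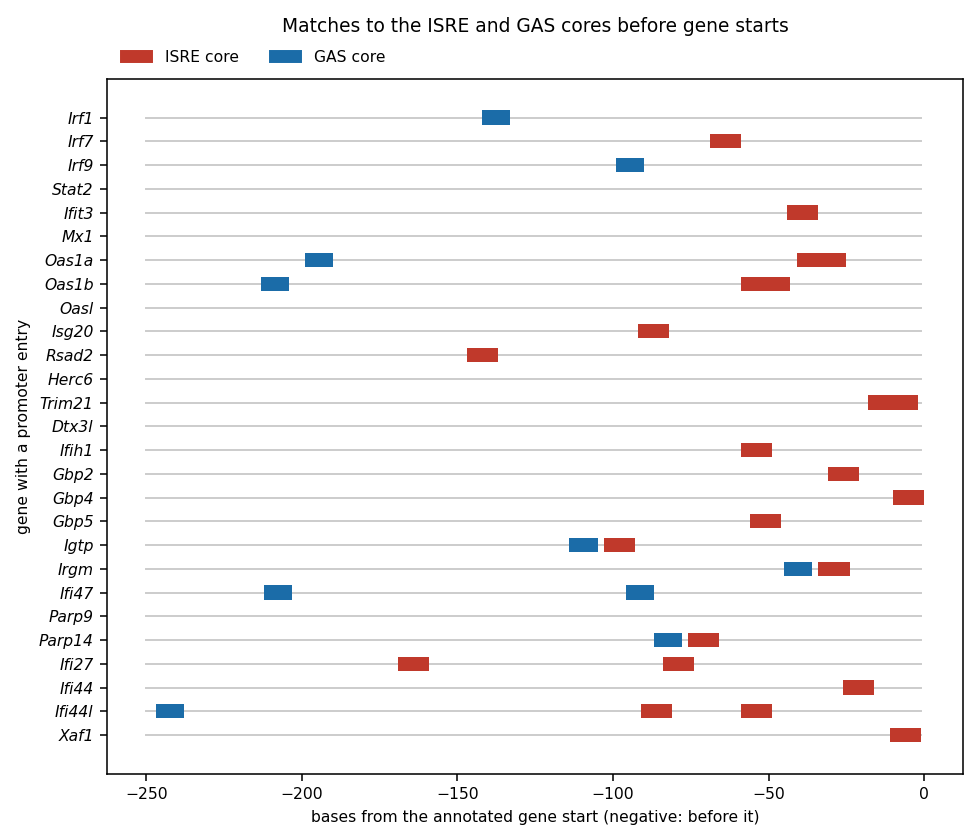
Each line is the 250 bases before the annotated start of 1 of the 27 genes with a promoter entry, ordered by role, with the distance from the start in bases on the horizontal axis. Red bars are ISRE cores and blue bars GAS cores, and 6 genes have neither.

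The values are log2 RMA signals, on which a difference of 1 is a doubling of signal, and levels of different genes cannot be compared on this scale. A dim level of 5.85, the 95th percentile of 69 olfactory receptor rows, stands for transcripts that striatum should not hold. In at least 1 group mean, 35 of the 36 genes lay above it, Oasl being the exception. Array medians over all transcripts ran from 5.56 to 5.65. The 10 measured markers of striatal projection neurons all lay above the dim level. Cortical neuron markers varied between arrays, from 0.61 above the mean of the 6 untreated (Normal and PD) arrays in Normal replicate 3 to 1.71 below it in LID+PD98059 replicate 1. In whole tissue, fewer cells of a type and less RNA per cell cannot be told apart. Each group is 3 rats, and no source used here gives a processing batch.

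The rats of a group lay far apart, and they did so for nearly all of the genes at once. Averaged over the 36 genes, the log2 signal was 6.38, 6.98 and 5.70 in the Normal rats (replicates 1, 2 and 3), 6.18, 6.45 and 5.74 in PD, 7.87, 6.23 and 8.73 in LID, 7.87, 7.51 and 6.09 in LID+Vehicle, and 6.38, 8.34 and 6.18 in LID+PD98059. In each L-DOPA group at least 1 rat was well above every untreated rat and at least 1 lay among them. LID replicate 3 exceeded all 6 untreated arrays for 36 of 36 genes, LID+Vehicle replicate 1 for 36, LID+PD98059 replicate 2 for 35, LID replicate 1 for 34 and LID+Vehicle replicate 2 for 31. Over all transcripts, 14.7% to 18.3% exceeded all 6 untreated arrays on an L-DOPA array. The other L-DOPA arrays were unlike these. LID replicate 2 exceeded the untreated arrays for 1 gene, Oas2, and LID+Vehicle replicate 3 and LID+PD98059 replicates 1 and 3 for 0, and each of these 4 arrays lay within the untreated range for 33 to 35 of the 36 genes.

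**Figure D2:**
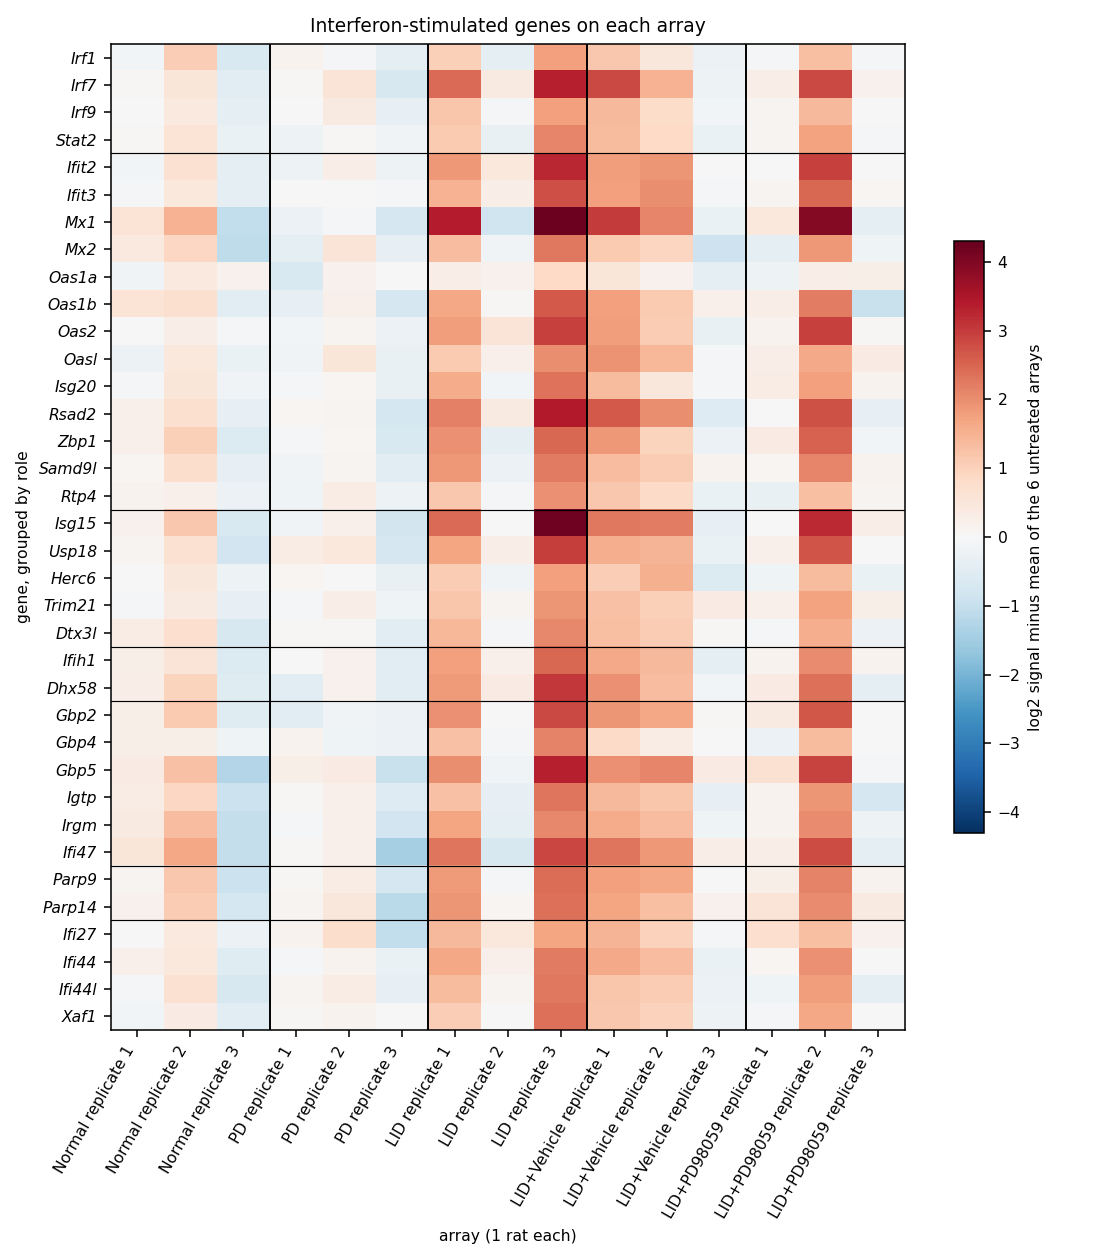
Rows are the 36 genes ordered by role, columns the 15 arrays by group, and colour the log2 signal minus that gene's mean over the 6 untreated arrays. Red columns stand in LID replicates 1 and 3, LID+Vehicle replicates 1 and 2 and LID+PD98059 replicate 2, with Oas1a the palest row.

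The order of the 3 rats was the same for every gene in LID, where replicate 3 was highest, replicate 1 in between and replicate 2 lowest for 36 of 36 genes. LID+PD98059 replicate 2 and Normal replicate 2 were the highest of their group for 36 of 36, while LID+PD98059 replicate 1 was above replicate 3 for 25 and below it for 11. LID+Vehicle replicate 1 was the highest of its group for 32, with replicate 2 ahead for Ifit2, Ifit3, Herc6 and Gbp5, and replicate 3 was the lowest for 36. PD replicate 2 was highest for 31. Of all 15 arrays LID replicate 3 was highest for 35 genes, and LID+PD98059 replicate 2 for the remaining one, Zbp1. The gap between LID replicate 3 and LID replicate 2 had a median of 2.43 over the genes, from 0.69 for Oas1a to 5.07 for Mx1. Between LID replicates 3 and 1 it had a median of 0.85, from 0.30 for Ifi27 to 1.74 for Isg15.
Untreated rats also differed from each other. Normal replicate 2 stood above Normal replicate 3 by a median of 1.11, with the widest gap for Ifi47 at 2.69, and 10 genes in Normal replicate 2 were at least 1 above the untreated mean. The SD within a group, as a median over the 36 genes, was 0.57 in Normal, 0.36 in PD, 1.23 in LID, 0.98 in LID+Vehicle and 1.18 in LID+PD98059 (n = 3 rats each), where the median over all transcripts was 0.15 to 0.17. Pooled over groups it was 0.97 for these genes and 0.19 for all transcripts. The share of variance that lay between groups had a median of 33.1% for these genes and 31.4% for all transcripts.

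**Figure D3:**
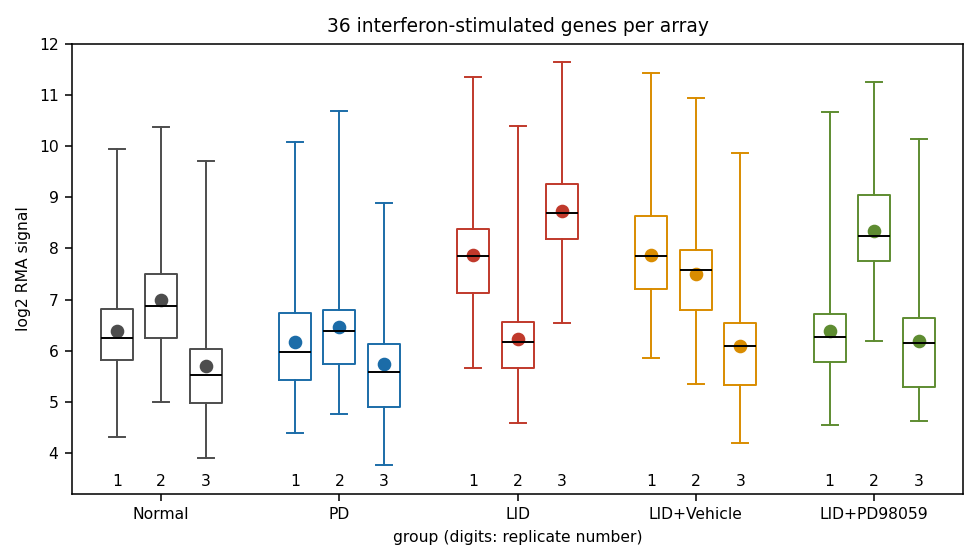
Boxes show the quartiles and median of the log2 signal of the 36 genes on each of the 15 arrays, whiskers their full range and dots their mean. Means run from 5.70 (Normal replicate 3) to 8.73 (LID replicate 3), and in each L-DOPA group 1 or 2 arrays lie at the level of the untreated ones.

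LID against PD asks whether repeated L-DOPA with dyskinesia goes with another level of these genes than the lesion alone, though L-DOPA and dyskinesia cannot be told apart in rats all selected for it. All 36 genes had a higher mean in LID (44.6% of all transcripts did), with a median log2 fold change of 1.44, a 2.71-fold difference, where the median of all transcripts was −0.03. As fitted, the differences ran from 0.60 for Oas1a to 2.58 for Mx1, and 32 genes differed by 1 or more, as did 0.973% of all transcripts. With limma 0 of the 36 passed both limits of a call, 0.05 for the adjusted p and 1.2 for the fold change (adjusted p from 0.506 to 0.645), beside 0.00545% of all transcripts. At the unadjusted threshold 16 were higher (44.4%, against 3.48% of all transcripts) and 0 lower (4.69% of all transcripts). That count rested on single rats, being 0 without PD replicate 3, LID replicate 1 or LID replicate 3, 3 without PD replicate 1, and 36 without LID replicate 2. The median was 0.98 without LID replicate 3 and 2.13 without LID replicate 2. The 3 LID rats all exceeded the 3 PD rats for 8 genes (22.2%, against 6% of all transcripts), which were Ifit2, Ifit3, Oas2, Rsad2, Ifih1, Dhx58, Gbp2 and Ifi44. For 14 genes the PD mean, but not the LID mean, lay under the dim level. Their fitted difference is not a measured one, and only a smaller bound, LID minus the dim level, can be given. Oasl lay under the dim level in both means and has no bound. With those 14 genes at their bound the median over the 35 genes above the dim level was 1.24.
All L-DOPA groups (9 rats) against the untreated groups (6 rats) share these arrays and are not a separate line of evidence. Every L-DOPA rat was lesioned and the Normal rats were not, so lesion and L-DOPA are mixed in this comparison. Again 36 of 36 genes were higher on average (44.5% of all transcripts), with a median of 0.98, or 0.89 with dim genes at their bound, and fitted values from 0.22 for Oas1a to 1.73 for Mx1. As fitted, 17 genes differed by 1 or more, as did 0.594% of all transcripts. Among the 17, Ifit3, Oas1b, Oas2, Isg15, Ifih1, Dhx58 and Zbp1 had untreated means under the dim level and bounds below 1. With limma 0 passed the adjusted threshold, which 1.78% of all transcripts did, and 20 were higher at the unadjusted one (55.6%, against 5.28% of all transcripts) and 0 lower (6.07%). Trim21, a ubiquitin ligase that binds antibody-coated particles inside cells, came nearest, at 0.89 (SE 0.29, limma, adjusted p = 0.141, exact permutation p = 0.0108). The treated and untreated rats overlapped for every gene, and 0.45% of all transcripts were higher without overlap. Leaving out 1 rat moved the unadjusted count of 20, to 6 without Normal replicate 3 or PD replicate 3, to 8 to 13 without Normal replicate 1, PD replicate 1, LID replicate 1 or 3, LID+Vehicle replicate 1 or 2, or LID+PD98059 replicate 2, and to 34 without LID replicate 2.

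**Figure D4:**
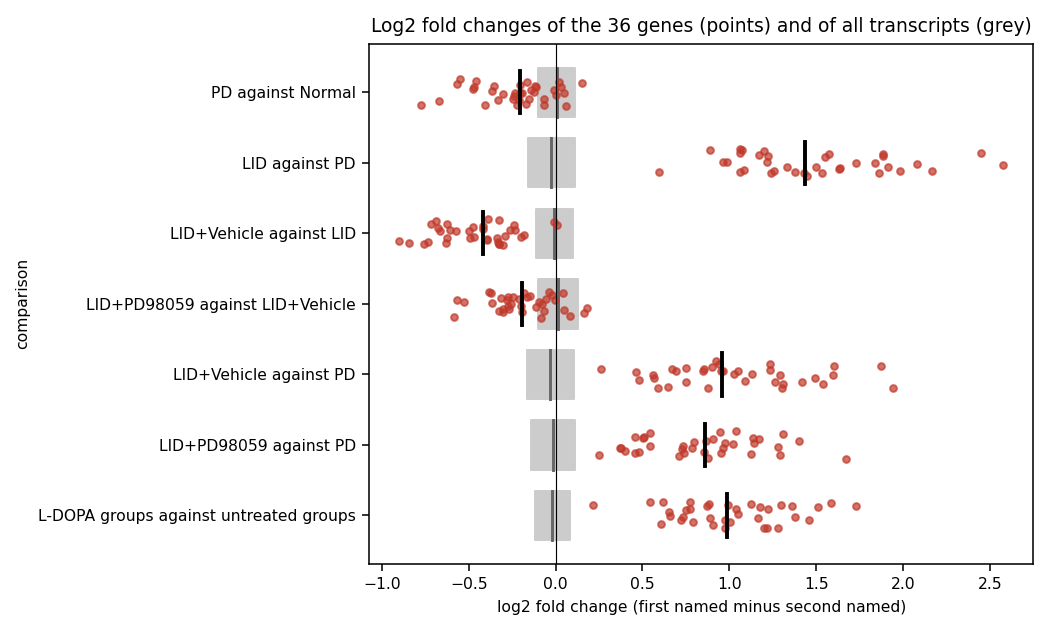
Points are the log2 fold changes of the 36 genes in 7 comparisons, black bars their medians, and grey boxes the quartiles of all transcripts with their median. All 36 points lie above 0 in the 4 comparisons of L-DOPA groups with untreated ones, and the medians of the other 3 comparisons lie between −0.42 and −0.20.

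Among the transcription factors of the response, Irf7 differed most. Irf7 amplifies type I interferon production and is itself induced by interferon. Irf7 stood at 5.97, 6.43 and 5.42 in Normal, 5.95, 6.46 and 5.21 in PD, 8.35, 6.28 and 9.24 in LID, 8.76, 7.41 and 5.71 in LID+Vehicle, and 6.18, 8.76 and 6.10 in LID+PD98059. Its mean was higher in LID than in PD by 2.08 (a 4.23-fold difference, SE 0.89, limma, adjusted p = 0.536), and its groups overlapped, since LID replicate 2 lay below PD replicate 2. Irf9 and Stat2, partners in the complex that binds the ISRE, differed by 0.96 and 1.07, and Irf1, a factor that interferon gamma induces strongly, by 0.89. The highest value of each of the 4 was in LID replicate 3. At the unadjusted threshold 1 of the 4 was higher in LID than in PD (3.48% of all transcripts), and 2 of 4 in all L-DOPA groups than in untreated ones (5.28%).

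The antiviral effectors are proteins that block viruses inside the cell, and Mx1 among them had the widest range over the 15 arrays of all 36 genes. Mx1, a dynamin-like GTPase that traps viral components, stood at 6.27, 7.20 and 4.63 in Normal, 5.46, 5.64 and 4.98 in PD, 9.06, 4.84 and 9.90 in LID, 8.72, 7.79 and 5.39 in LID+Vehicle, and 6.14, 9.64 and 5.31 in LID+PD98059. LID replicate 2 was below all 3 PD rats and below Normal replicates 1 and 2, while LID replicates 1 and 3 were above all untreated rats. The mean difference of LID from PD was 2.58 (as fitted, SE 1.35, limma, adjusted p = 0.581), with an exact permutation p of 0.4 where 3 rats against 3 allow 0.1 at best, and at least 2.08 with PD at the dim level. Mx2, its neighbour on chromosome 11 with 1 gene between, differed by 1.22.
Rsad2, which encodes viperin, an enzyme that makes a chain terminator of viral RNA synthesis, separated LID from PD more fully. Rsad2 stood at 5.88, 6.35 and 5.32 in Normal, 5.76, 5.77 and 4.92 in PD, 7.83, 6.04 and 9.07 in LID, 8.31, 7.66 and 5.10 in LID+Vehicle, and 5.65, 8.41 and 5.31 in LID+PD98059. The LID rats lay above the PD rats without overlap, by 2.16 (as fitted, SE 0.95, limma, adjusted p = 0.539), or at least 1.79. LID+Vehicle replicate 3 and LID+PD98059 replicate 3 were both below 5 of the 6 untreated rats.
Ifit2 and Ifit3, adjacent genes on chromosome 1, encode proteins that bind foreign RNA and hold back its translation. Ifit2 stood at 6.12, 6.91 and 5.86 in Normal, 6.01, 6.53 and 6.00 in PD, 8.11, 6.71 and 9.46 in LID, 8.02, 8.14 and 6.24 in LID+Vehicle, and 6.26, 9.19 and 6.21 in LID+PD98059. Here LID+Vehicle replicate 2 was a little above replicate 1, unlike in most genes. The LID and PD rats did not overlap, and their means differed by 1.91 (a 3.77-fold difference, SE 0.81, limma, adjusted p = 0.536). Ifit3 differed by at least 1.10, also without overlap, with PD under the dim level.
The oligoadenylate synthetases make a messenger that turns on RNase L, which cuts RNA. Oas2 stood at 4.82, 5.15 and 4.81 in Normal, 4.74, 4.98 and 4.59 in PD, 6.65, 5.39 and 7.80 in LID, 6.66, 5.95 and 4.53 in LID+Vehicle, and 4.99, 7.79 and 4.90 in LID+PD98059. This was the only gene for which LID replicate 2 exceeded every untreated rat. LID was above PD by 1.84 (as fitted, SE 0.75, limma, adjusted p = 0.526), a bound of at least 0.76 since all 6 untreated rats lay under the dim level. Oas1b stood at 6.17, 6.25 and 5.11 in Normal, 5.23, 5.80 and 4.85 in PD, 7.25, 5.61 and 8.21 in LID, 7.33, 6.69 and 5.78 in LID+Vehicle, and 5.86, 7.76 and 4.62 in LID+PD98059. PD lay under the dim level for Oas1b as well, and LID was above PD by 1.73 (as fitted, SE 0.76, limma, adjusted p = 0.54), or at least 1.17. LID+PD98059 replicate 3 had the lowest Oas1b value of all 15 arrays.
Oas1a, a close relative of Oas1b on chromosome 12 with 2 genes between, had the smallest difference of the 36 genes in both comparisons above, with values of 6.22, 6.80 and 6.57 in Normal, 5.71, 6.57 and 6.40 in PD, 6.65, 6.56 and 7.25 in LID, 6.89, 6.57 and 5.99 in LID+Vehicle, and 6.15, 6.67 and 6.61 in LID+PD98059. LID+Vehicle replicate 3 was its lowest array after PD replicate 1, and its mean differed between LID and PD by 0.60 (a 1.51-fold difference, SE 0.28, limma, adjusted p = 0.56). Oas1a, Oas1b and the Mx and Gbp genes have near relatives, and probes that read more than 1 of them would blur such differences. The nuclease Isg20 differed between LID and PD by 1.38 and Samd9l, a translation inhibitor, by 1.45. With PD under the dim level, Zbp1, a sensor of Z-form nucleic acid, differed by at least 0.86. Rtp4, a receptor chaperone that restrains viruses, differed by at least 0.24, also with PD under that level. Oasl lay under the dim level in both group means, and no difference is given. Of the 13 genes of this role 6 were higher at the unadjusted threshold in LID against PD (3.48% of all transcripts) and 7 in all L-DOPA groups against untreated ones (5.28%).

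In the ISG15 system a ubiquitin-like protein is put on other proteins. Isg15, the modifier itself, stood at 4.73, 5.72 and 3.90 in Normal, 4.40, 4.76 and 3.77 in PD, 6.98, 4.58 and 8.72 in LID, 6.80, 6.74 and 4.20 in LID+Vehicle, and 4.55, 7.76 and 4.84 in LID+PD98059. Its LID values lay far apart, under the dim level in replicate 2 and at 8.72 in replicate 3. The difference of LID from PD was 2.45 (as fitted, SE 1.06, limma, adjusted p = 0.536), but with PD at the dim level only at least 0.91. Usp18 removes ISG15 again and damps the interferon receptor. Usp18 stood at 6.44, 6.99 and 5.52 in Normal, 6.67, 6.77 and 5.61 in PD, 8.04, 6.63 and 9.31 in LID, 7.90, 7.79 and 6.07 in LID+Vehicle, and 6.55, 9.03 and 6.31 in LID+PD98059. It was higher in LID than in PD by 1.64 (a 3.11-fold difference, SE 0.80, limma, adjusted p = 0.566), and LID replicate 2 lay between PD replicate 3 and PD replicate 1. Herc6, the ligase that attaches ISG15 in mouse, differed by 0.99, Trim21 by 1.06, and Dtx3l, a ubiquitin ligase that works with Parp9, by 1.26. At the unadjusted threshold 2 of these 5 genes were higher in LID than in PD (3.48% of all transcripts) and 3 of 5 in all L-DOPA groups (5.28%).

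Both measured RNA sensors were among the genes without overlap between LID and PD. Ifih1 encodes MDA5, a sensor of long double-stranded RNA, and Dhx58 encodes LGP2, which tunes it. Dhx58 stood at 5.86, 6.54 and 5.07 in Normal, 5.13, 5.77 and 5.14 in PD, 7.43, 5.95 and 8.61 in LID, 7.56, 6.92 and 5.46 in LID+Vehicle, and 5.94, 7.96 and 5.21 in LID+PD98059. LID exceeded PD by 1.98 (as fitted, SE 0.77, limma, adjusted p = 0.506), or at least 1.48 with PD at the dim level, with the smallest unadjusted p of the 36 genes (0.0232). Ifih1 stood at 5.97, 6.26 and 5.13 in Normal, 5.71, 5.90 and 5.25 in PD, 7.48, 5.92 and 8.18 in LID, 7.33, 7.10 and 5.31 in LID+Vehicle, and 5.85, 7.75 and 5.87 in LID+PD98059. Its difference was 1.57 (as fitted, SE 0.67, limma, adjusted p = 0.536), or at least 1.34, and the margin between the lowest LID rat and the highest PD rat was only 5.92 against 5.90. Ddx58, the third sensor of the family, was not analysed here.

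Guanylate-binding proteins and immunity-related GTPases coat and break the vacuoles of intracellular pathogens, and are known for their response to interferon gamma. Gbp2 stood at 6.37, 7.22 and 5.58 in Normal, 5.67, 5.95 and 5.86 in PD, 8.08, 6.11 and 8.94 in LID, 8.02, 7.76 and 6.17 in LID+Vehicle, and 6.49, 8.79 and 6.13 in LID+PD98059. Each of the 9 L-DOPA rats was above each of the 3 PD rats for Gbp2, while Normal replicates 1 and 2 lay above LID replicate 2. LID was above PD by 1.89 (as fitted, SE 0.79, limma, adjusted p = 0.531), or at least 1.86. Gbp5, which also promotes inflammasome assembly, stood at 6.18, 7.11 and 4.59 in Normal, 6.08, 6.18 and 4.87 in PD, 7.85, 5.69 and 9.18 in LID, 7.80, 7.94 and 6.18 in LID+Vehicle, and 6.49, 8.74 and 5.75 in LID+PD98059. LID replicate 2 lay below PD replicate 1 and 2, and the mean difference was 1.86 (as fitted, SE 0.95, limma, adjusted p = 0.576), or at least 1.72. Ifi47 stood at 7.47, 8.63 and 5.94 in Normal, 7.03, 7.18 and 5.53 in PD, 9.28, 6.27 and 9.84 in LID, 9.27, 8.84 and 7.25 in LID+Vehicle, and 7.27, 9.77 and 6.58 in LID+PD98059. In Ifi47 Normal replicate 2 was 2.69 above Normal replicate 3, and LID differed from PD by 1.88 (a 3.69-fold difference, SE 1.04, limma, adjusted p = 0.596). Igtp and Irgm differed by 1.17 and 1.33, and Gbp4 by at least 0.28 with PD under the dim level. Of these 6 genes 2 were higher at the unadjusted threshold in LID against PD (3.48% of all transcripts), and like the count over all 36 genes this one rests on single rats.

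Parp14 and Parp9 belong to the ADP-ribosyltransferases, and lie on chromosome 11 on either side of Dtx3l, each next to it. Parp14 stood at 6.52, 7.42 and 5.57 in Normal, 6.46, 6.83 and 5.15 in PD, 8.23, 6.40 and 8.70 in LID, 8.02, 7.63 and 6.51 in LID+Vehicle, and 6.88, 8.36 and 6.71 in LID+PD98059. PD replicate 3 was the lowest of all 15 arrays, and the mean of LID was above that of PD by 1.63 (a 3.09-fold difference, SE 0.69, limma, adjusted p = 0.536). Parp9 differed by 1.5. Ifi27, a mitochondrial protein gene, and the neighbours Ifi44 and Ifi44l, with Xaf1, an apoptosis promoter, made up the remaining 4 genes. Ifi27, Ifi44 and Xaf1 differed by 1.24, 1.43 and 1.06, and Ifi44l by at least 0.45 with PD under the dim level. Of these 4 genes the 3 LID rats were above the 3 PD rats for Ifi44 alone (6% of all transcripts).

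The lesion itself, in PD against Normal, went with no member past a threshold. Of the 36 genes 6 had a higher mean in PD, against 51.7% of all transcripts, and the median was −0.21. With limma 0 passed the adjusted threshold, as 0% of all transcripts did, and 0 the unadjusted one, in either direction (2.36% of all transcripts higher and 1.95% lower). The largest difference was that of Ifi47 at −0.77, whose groups overlapped. The median was 0.07 without Normal replicate 2, −0.46 without Normal replicate 3 and −0.03 without PD replicate 3, so that a single sham rat set its sign.
The vehicle infusion was asked about in LID+Vehicle against LID, in which cannula and infusion cannot be told apart. Of the 36 genes 1 had a higher mean after infusion (47.7% of all transcripts), the median was −0.42, and with limma 0 passed either threshold (0% of all transcripts passed the adjusted one, and 1.85% were higher and 1.82% lower at the unadjusted one). The median was −1.12 without LID replicate 2, and −0.75 and −0.60 when the first or the second LID+Vehicle rat was left out. It turned to 0.10 without LID replicate 3 and to 0.05 without LID+Vehicle replicate 3.
PD98059 against vehicle, LID+PD98059 against LID+Vehicle, asked whether the MEK inhibitor moved these genes. It had a median of −0.20, with 5 of 36 genes higher (53.2% of all transcripts), from −0.58 for Ifi47 to 0.18 for Oas2. With limma 0 passed either threshold (adjusted p from 0.991 to 1), where 0% of all transcripts passed the adjusted one, and 2.33% were higher and 2.12% lower at the unadjusted one. Each group held rats at both levels, so the sign was set by which rat was counted. The median was −0.84 without LID+PD98059 replicate 2 and −0.75 without LID+Vehicle replicate 3, and it turned to 0.20, 0.16, 0.14 and 0.00 without LID+PD98059 replicate 3, LID+Vehicle replicate 1, LID+PD98059 replicate 1 and LID+Vehicle replicate 2.
Against the same PD rats that LID was set against, LID+Vehicle had a median of 0.96 and LID+PD98059 one of 0.86, with 36 of 36 genes higher in each (43.4% and 46.8% of all transcripts). With limma 0 genes passed the adjusted threshold (0.0245% and 0.00273% of all transcripts) and 0 the unadjusted one (3.89% and 2.84% of all transcripts were higher, 5.49% and 4.34% lower). As fitted, with dim means taken as they stand, 17 genes differed by 1 or more in LID+Vehicle and 11 in LID+PD98059. Of all transcripts 1.1% and 0.651% did. The 3 rats exceeded all PD rats for 4 genes in LID+Vehicle (11.1%, against 6.69% of all transcripts), namely Gbp2, Ifi47, Samd9l and Trim21. In LID+PD98059 they did so for 3 (8.33%, against 6.2%), namely Ifit3, Isg20 and Gbp2. Both shares lie near those of all transcripts, so these counts are no result about the 36 genes. Without LID+Vehicle replicate 3 the unadjusted count of LID+Vehicle was 15 and its median 1.53, without PD replicate 2 the count was 2, and without LID+Vehicle replicate 1 the median was 0.63. The median of LID+PD98059 was 0.17 without its replicate 2, and its count was 1 without PD replicate 2.

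Of 22 ligands, receptors and signalling genes of the interferon pathway, 6 were higher and 1 lower at the unadjusted threshold in all L-DOPA groups against untreated ones, beside 5.28% and 6.07% of all transcripts, and Jak2, a kinase of the interferon gamma receptor, passed the adjusted threshold. Jak2 stood at 8.09, 8.05 and 8.04 in Normal, 8.0, 8.24 and 8.06 in PD, 8.71, 8.71 and 8.48 in LID, 9.12, 8.81 and 8.41 in LID+Vehicle, and 8.17, 8.62 and 8.18 in LID+PD98059. It was 0.50 higher (limma, adjusted p = 0.0369), and LID replicates 1 and 2 were equal at 8.71. Il10rb, a receptor chain of interferon lambda, was 0.81 higher (adjusted p = 0.139), and Irf3, which switches on interferon beta, 0.23 higher (adjusted p = 0.169), neither past the threshold. The interferon genes themselves lay under or around the dim level of 5.85. Ifnb1 ran from 3.28 to 3.65, Ifng from 4.40 to 5.40 with its highest value in LID replicate 3, and Ifna4 from 5.78 to 6.18. Ifna2, at 5.48 to 6.47, was lower in the L-DOPA groups by 0.31 (adjusted p = 0.121). Of 9 pattern receptors and adaptors 4 were higher at the unadjusted threshold, among them Tlr7, a sensor of single-stranded RNA, by 1.32 (adjusted p = 0.107), Tlr2, a sensor of bacterial lipoproteins, by at least 0.09 with the untreated mean under the dim level (adjusted p = 0.0635), and the adaptor Myd88 by 0.60 (adjusted p = 0.194).
Of 38 further interferon-stimulated genes outside the list, 14 were higher and 1 lower at the unadjusted threshold in the L-DOPA groups (5.28% and 6.07% of all transcripts). Of the 38 genes 0 passed the adjusted threshold. Trim25, a ligase that activates RNA sensing, was 1.0 higher (limma, adjusted p = 0.112) and Trex1, a DNase, 0.73 (adjusted p = 0.108). For Ifitm1 and Ifitm2, membrane proteins that block viral fusion, the untreated means were under the dim level, and the differences were at least 0.13 and at least 0.16 (limma, adjusted p = 0.0941 and 0.151). Their list followed the 36 genes from rat to rat, with a mean above the untreated mean by 1.03, −0.09 and 1.52 in LID, 1.16, 0.72 and −0.02 in LID+Vehicle, and 0.23, 1.30 and −0.01 in LID+PD98059.
Interferon-induced chemokines, which draw in leukocytes, had a wider range. Their 8 genes stood 1.57, −0.59 and 2.29 from the untreated mean in LID, 2.49, 2.27 and 0.02 in LID+Vehicle, and 0.44, 2.74 and −0.07 in LID+PD98059. Ccl2, a monocyte attractant, stood at 5.87, 6.19 and 5.61 in Normal, 5.60, 5.51 and 5.46 in PD, 7.76, 5.27 and 8.88 in LID, 11.05, 9.78 and 6.21 in LID+Vehicle, and 6.41, 9.43 and 5.99 in LID+PD98059. Ccl7 stood at 4.01, 3.96 and 3.68 in Normal, 3.68, 3.5 and 3.90 in PD, 3.99, 3.61 and 4.58 in LID, 8.93, 7.51 and 4.08 in LID+Vehicle, and 4.08, 6.95 and 3.87 in LID+PD98059. Ccl7 thus stayed under the dim level in all LID rats and exceeded it in LID+Vehicle replicates 1 and 2 and in LID+PD98059 replicate 2. Cxcl16, Ccl2 and Ccl7 were higher at the unadjusted threshold in all L-DOPA groups (limma, adjusted p = 0.163, 0.166 and 0.247). Cxcl16 differed by 1.92 and Ccl2 by at least 2.01, while both group means of Ccl7 were under the dim level. Genes of antigen presentation, which interferon gamma induces, stood 1.29, −0.77 and 1.71 from the untreated mean in LID, and Normal replicate 2 stood at 1.22. Of these 19 genes 2, Psmb10 and Psme2 of the proteasome, were higher at the unadjusted threshold, as 5.28% of all transcripts were, so the count is no result about this list.

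Markers of other cells differed between the same rats, and their part in the interferon-stimulated genes was not tested. The 13 measured T and NK cell markers had means of 0.83, −0.35 and 1.15 from the untreated mean in LID, 1.34, 0.70 and 0.20 in LID+Vehicle and 0.42, 1.51 and 0.09 in LID+PD98059, against −0.28 to 0.38 in the untreated rats. Only 2 of the 13 lay above the dim level on average, and Cd3d, Cd3e and Gzma lay under it on every array. At the unadjusted threshold 7 of the 13 were higher in all L-DOPA groups (5.28% of all transcripts) and 0 passed the adjusted one. Prf1, the pore-former of killer cells, had the smallest p (limma, adjusted p = 0.127), with both means under the dim level. The 14 microglia markers, all above the dim level, stood at 1.32, −0.37 and 1.05 in LID, 1.30, 0.71 and 0.55 in LID+Vehicle, 1.02, 1.31 and 0.25 in LID+PD98059, and −0.59 to 0.74 in the untreated rats. All 14 had a higher mean in the L-DOPA groups than in the untreated ones. At the unadjusted threshold 9 of 14 were higher (5.28% of all transcripts) and 0 passed the adjusted one. Itgam, C1qb, Csf1r and C1qa had the smallest p of the list. P2ry12 and Tmem119, markers of resting microglia picked after their values were seen, had their highest values in LID replicate 1. Tmem119 had its lowest in LID replicate 3, where the mean of the 14 markers stood at 1.05. LID+PD98059 replicate 1, where 34 of the 36 interferon-stimulated genes lay within the untreated range, had a microglia mean above that of every untreated rat.
The 15 reactive astrocyte markers stood at 1.28, 0.15 and 1.5 in LID, 2.79, 2.15 and 0.75 in LID+Vehicle and 1.39, 2.29 and 0.48 in LID+PD98059, against −0.42 to 0.36 in the untreated rats. Here 13 of 15 were higher at the unadjusted threshold (5.28% of all transcripts) and 3 rose past the adjusted one, which 1.78% of all transcripts passed. Timp1, a protease inhibitor, rose by 2.63 (limma, adjusted p = 0.0115) and Lcn2, an iron-carrier binding protein, by at least 2.75 (adjusted p = 0.0185). The intermediate filament gene Gfap rose by 1.16 (limma, adjusted p = 0.0355). Timp1 stood at 5.97, 6.30 and 5.83 in Normal, 5.93, 6.21 and 6.10 in PD, 8.86, 7.62 and 8.96 in LID, 10.73, 9.72 and 7.63 in LID+Vehicle, and 8.41, 9.31 and 7.0 in LID+PD98059. All 9 L-DOPA rats were above all 6 untreated rats for Timp1, which held for 0 of the 36 interferon-stimulated genes and for 0.45% of all transcripts. The 12 markers of monocytes, macrophages and neutrophils stood between −0.43 in LID replicate 2 and 1.47 in LID+Vehicle replicate 1, with 6 above the dim level on average, and the neutrophil genes S100a8, S100a9 and Mpo under it on every array. The 5 B and plasma cell markers had a mean below the untreated mean in all 3 LID rats (−0.48, −0.54 and −0.41). Their median difference in LID against PD was −0.01, with 2 of the 5 genes higher and 0 past the unadjusted threshold. Jchain among them stood at 4.55 in LID, under the dim level, against 6.73 in the untreated groups. Of 6 cortical neuron markers 5 were lower at the unadjusted threshold in all L-DOPA groups (6.07% of all transcripts), with a fitted median of −1.31. Neurod6, Neurod2 and Tbr1, transcription factors of cortical excitatory neurons, fell past the adjusted one (limma, adjusted p = 0.00537, 0.0181 and 0.0384). Lesion and L-DOPA are mixed in that comparison. The fitted median was −0.73 in PD against Normal, with 2 lower at the unadjusted threshold (1.95% of all transcripts). It was −0.62 in LID against PD, with 0 lower at that threshold (4.69%). Endothelial markers were above the untreated mean on all 9 L-DOPA arrays, by 0.11 to 0.54, and on the untreated arrays stood between −0.25 and 0.21. Of their 9 genes 8 had a higher mean and 2 were higher at the unadjusted threshold (5.28% of all transcripts). Cdh5, a junction protein of vessels, rose past the adjusted one by 0.40 (limma, adjusted p = 0.0216). In PD against Normal 8 of the 9 had a higher mean and 2 were higher at the unadjusted threshold (2.36% of all transcripts). In LID against PD 7 had a higher mean and 0 were higher at that threshold (3.48%). Markers of choroid plexus, oligodendrocytes and blood stayed within 0.65 of the untreated mean on every array.

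**Figure D5:**
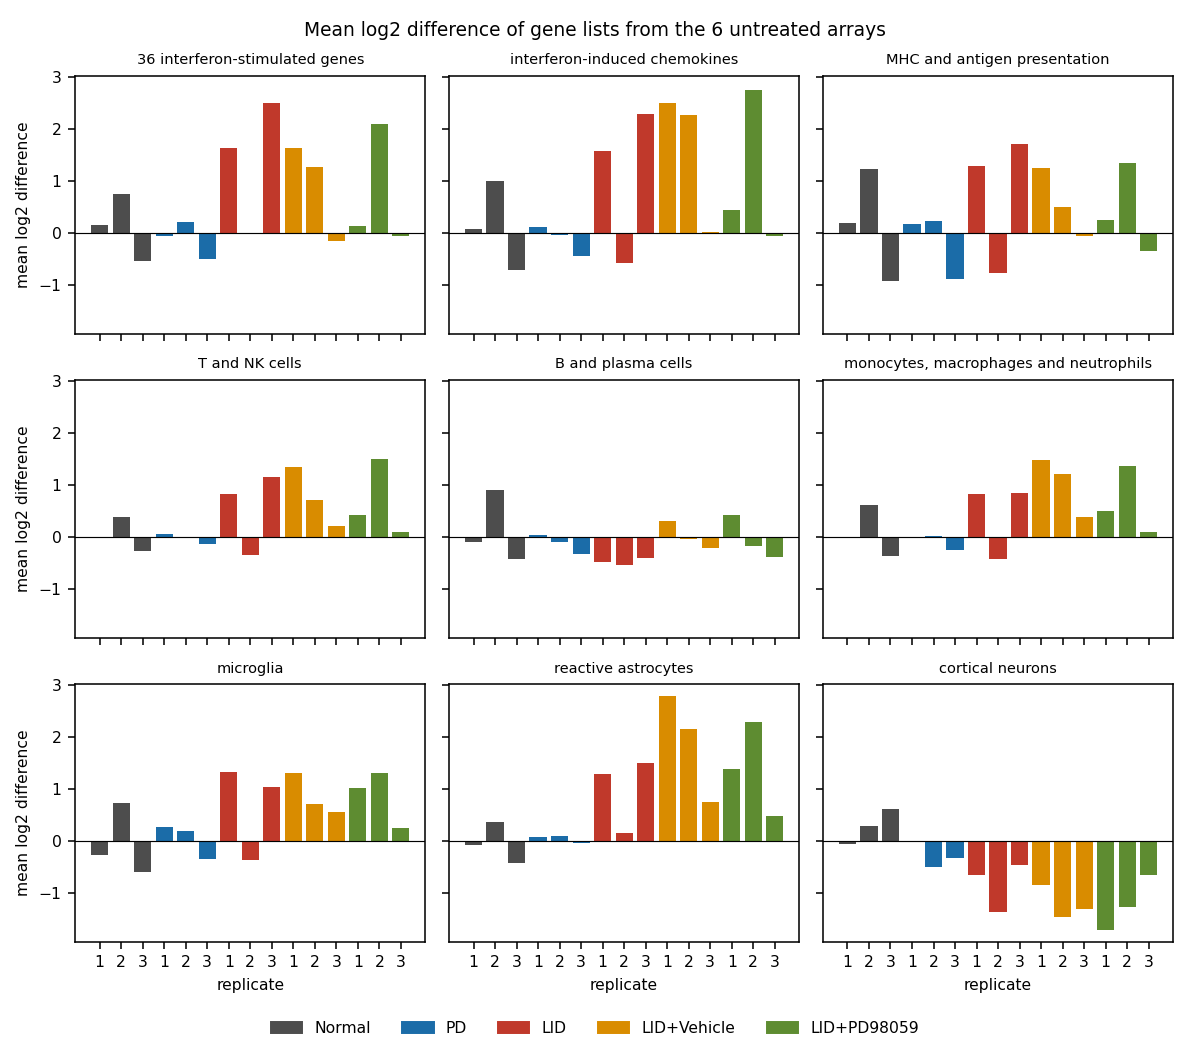
Bars give, for each of the 15 arrays, the mean log2 difference of a gene list from its mean over the 6 untreated arrays, for the 36 interferon-stimulated genes and 8 other lists, coloured by group with the replicate number beneath. The interferon-stimulated, chemokine and T and NK panels share their tall bars, while reactive astrocyte markers are above 0 on all 9 L-DOPA arrays and cortical neuron markers below 0 on all 9.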

How the data were processed

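Striatal RNA of 15 rats was hybridised to Affymetrix Rat Gene 2.0 ST arrays, 1 colour, 1 array a rat. The log2 values the authors deposited are RMA signals from Affymetrix Expression Console, with 1 value a transcript, and were used unchanged. RMA tends to compress large ratios. The methods describe an exon level option and a median over probes; which summary was deposited is not given in the sources used here.

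Groups were compared in R 4.3.3 with limma 3.58.1 (lmFit and eBayes, 1 mean for each of the 5 groups over all 15 arrays, two-sided, Benjamini-Hochberg adjustment over 36685 transcripts). A call needed an adjusted p under 0.05 and a fold change of at least 1.2, and counts at an unadjusted p stand beside it. The 7 comparisons share arrays. Exact permutation tests over single genes used all 20 splits of 3 against 3 rats (smallest p 0.1) or 5005 splits of 9 against 6 (smallest p 0.0001998), two-sided, with no adjustment. Where 1 of the compared means lay under the dim level, the bound is the brighter mean minus that level; values called fitted take the dim mean as it stands. The number of arrays limits the precision.

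The genes and lists were chosen with earlier results of these data known. Values per array are given for the 14 genes with the largest difference in LID against PD or L-DOPA against untreated groups, and of other lists up to 4 genes by smallest p are named; Oas1a, Ifnb1, Ifng, Ifna4, Cd3d, P2ry12, Tmem119, S100a8, S100a9 and Mpo were added after their values were seen. The fit was tested on simulated data. Settings tried were array weights, trend and robust moderation, a filter on dim transcripts (18540 kept), centring, quantile normalization again, the compared arrays alone, the mean of rows per gene, no fold threshold, the replicate number as a block, and each array left out. Promoters came from RefSeq, build GRCr8. Plots used matplotlib.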

Additional observations from a re-analysis of the deposited data

How the results depend on the processing

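With limma 0 of the 36 genes passed the adjusted threshold in each of the 7 comparisons under each setting tried. At the unadjusted one the count was 16 for LID against PD, 20 for all L-DOPA groups against untreated ones and 0 for the other 5. The 560 values tried for single genes kept their direction and their side of the adjusted threshold. Counts at the unadjusted threshold moved. With array weights they were 32 in place of 16 for LID against PD, 2 in place of 0 for LID+Vehicle against PD and 31 in place of 20 for all L-DOPA groups against untreated ones, and with only the compared arrays in the fit the second was 11. Leaving out 1 rat at a time, the count ran from 0 to 36 for LID against PD, 0 to 2 for LID+Vehicle against LID, 0 to 15 for LID+Vehicle against PD, 0 to 1 for LID+PD98059 against PD and 6 to 34 for all L-DOPA groups. Medians of LID+Vehicle against LID, of LID+PD98059 against LID+Vehicle and of PD against Normal changed sign with 1 rat left out. In the other 217 cases counts stayed within 1.5 times. These cases include every count at the adjusted threshold, all 0, and unadjusted counts that stayed at 0. Their number is thus no measure of how stable the unadjusted counts were. The same-numbered rats of 2 groups deviated with correlations of −0.31 to 0.22, so the numbers were not taken as pairs. With the replicate number as a block the unadjusted count for LID against PD was 14. Signals under the dim level of 5.85 limit what can be said of Oasl, and of Gbp4, Ifi44l and Rtp4 outside the LID group. Such signals also leave only a bound for 14 genes in LID against PD. The same holds for 11 genes in all L-DOPA groups against untreated ones. Mx1, Isg15 and Rsad2 are among them in both comparisons. Groups of 3 rats limit all comparisons.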
